A study of Mus musculus with 12 samples.

Results

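The interaction of benzbromarone (BBR) and oleic acid (OA) was examined in primary mouse hepatocytes, that is, whether a gene's response to BBR differed between cells cultured with and without OA. No library was selected or left out: all 12 of the 12 libraries of the series entered, 3 in each of the groups control, OA, BBR and BBR+OA. Per the study's methods, the hepatocytes came from livers of young male C57BL/6J mice by collagenase perfusion and a Percoll gradient, and were cultured in serum-containing medium. BBR, a urate-lowering drug, was used at a single non-toxic concentration, and OA, a monounsaturated fatty acid bound to albumin, was added for the same exposure. The control cells thus received neither agent, the OA and BBR cells received 1 agent each, and the BBR+OA cells received both. The labels give the tissue as liver and number the replicates from 1 to 3, but do not say which replicates came from separate mice, so p-values here measure the spread between these libraries.

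BBR is described by the study as a weak agonist of peroxisome proliferator-activated receptors (PPARs), nuclear receptors that fatty acids activate and that induce genes of fatty acid oxidation and storage. In hepatocytes, incoming fatty acids are bound, esterified into triglyceride and stored in lipid droplets, or broken down in mitochondria and peroxisomes. Cholesterol synthesis is under separate control, by SREBP-2, a transcription factor held back by sterols. Under low oxygen, another set of genes is induced through the hypoxia-inducible factors. Differentiated hepatocytes also carry amino acid catabolism, gluconeogenesis, bile acid synthesis and the secretion of plasma proteins, functions that decline readily in culture.

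The libraries held 15485508 to 23668379 counts each. Levels are given as CPM, counts scaled to library size, on which 1 count was worth 0.0423 to 0.0646, and effects as log2 fold changes. The 12 hepatocyte markers summed to 40570 to 47150 CPM in the 12 libraries, against 107 to 189 CPM for 12 Kupffer cell markers, 88.5 to 106 CPM for 12 endothelial markers and 43.4 to 57.0 CPM for 12 stellate cell markers. The first principal component, with 45.8% of the variance, separated the 6 libraries with OA from the 6 without. No replicate stood apart from the others of its group, and mitochondrially encoded genes took 5.50% to 6.89% of counts.

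BBR changed far fewer genes in the presence of OA than in its absence. Without OA, 3462 of 12742 genes tested (27.2%) passed an adjusted p under 0.05 in edgeR's quasi-likelihood test, 1561 of them higher and 1901 lower with BBR. With OA, 753 genes (5.91%) passed, 336 higher and 417 lower. The 2 comparisons share no library. The 1561 genes raised without OA had a median effect of 0.30 without and 0.050 with OA on the log2 scale, and 65.7% of them kept a positive sign with OA. Of the 1901 genes lowered without OA, 64.5% kept a negative sign, and their median moved from -0.35 to -0.059. These genes were chosen by the first of the 2 values in each pair, so a move toward 0 is partly set by the choice. Without BBR+OA replicate 2 or 3, or without OA replicate 2, the count with OA fell to 408, 374 and 424 genes.

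The difference between the 2 effects was tested for each gene as (BBR+OA minus OA) minus (BBR minus control), in edgeR with Benjamini-Hochberg adjustment over all genes. A negative interaction means that BBR raised the gene less, or lowered it more, with OA than without. The interaction passed for 1551 genes (12.2%), 875 positive (6.87%) and 676 negative (5.31%), and 161 of them had an absolute log2 interaction of at least 1. The median of all genes tested was 0.012. Without BBR replicate 2 or OA replicate 2, 1028 and 1027 genes passed. The balance of signs also depended on single libraries: negative calls outnumbered positive ones without OA replicate 2 (524 against 503) and without replicate 1, 2 or 3 of BBR+OA (619 against 593, 664 against 640 and 595 against 546). In DESeq2 the split was 710 positive and 700 negative. In the edgeR fit, 834 of the 1551 genes (53.8%) passed whichever library was left out.

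In most interaction genes the response to BBR was smaller with OA. The largest class, 1176 genes (9.23% of genes tested and 75.8% of interaction genes), was blunted. BBR changed these genes without OA, and the fitted effect with OA was smaller in absolute size. With OA they either did not pass or passed in the same direction. Of these, 494 were rises and 682 falls, and 41 still passed with OA. In 717 of the 1176 the fitted effect with OA, which had not passed, was of opposite sign. A further 83 genes (0.651%) were reversed, passing in opposite directions, 50 from a rise to a fall and 33 from a fall to a rise. In 149 genes (1.17%) the response was strengthened, meaning that BBR changed the gene with OA and by more than without it, with 79 rises and 70 falls. Only 10 of the 149 also passed without OA, and in 110 the fitted effect without OA, which had not passed, was of opposite sign. The other 143 genes (1.12%) met none of these definitions, and their fitted effects had opposite signs without and with OA. The classes use the same fit as the interaction, so their sizes are descriptions. The blunted class fell to 758 without BBR replicate 2. The reversed class fell to 46 genes without the second BBR+OA library, 32 without the third and 29 without OA replicate 2, where the strengthened class fell to 96, 73 and 61.

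**Figure D1:**
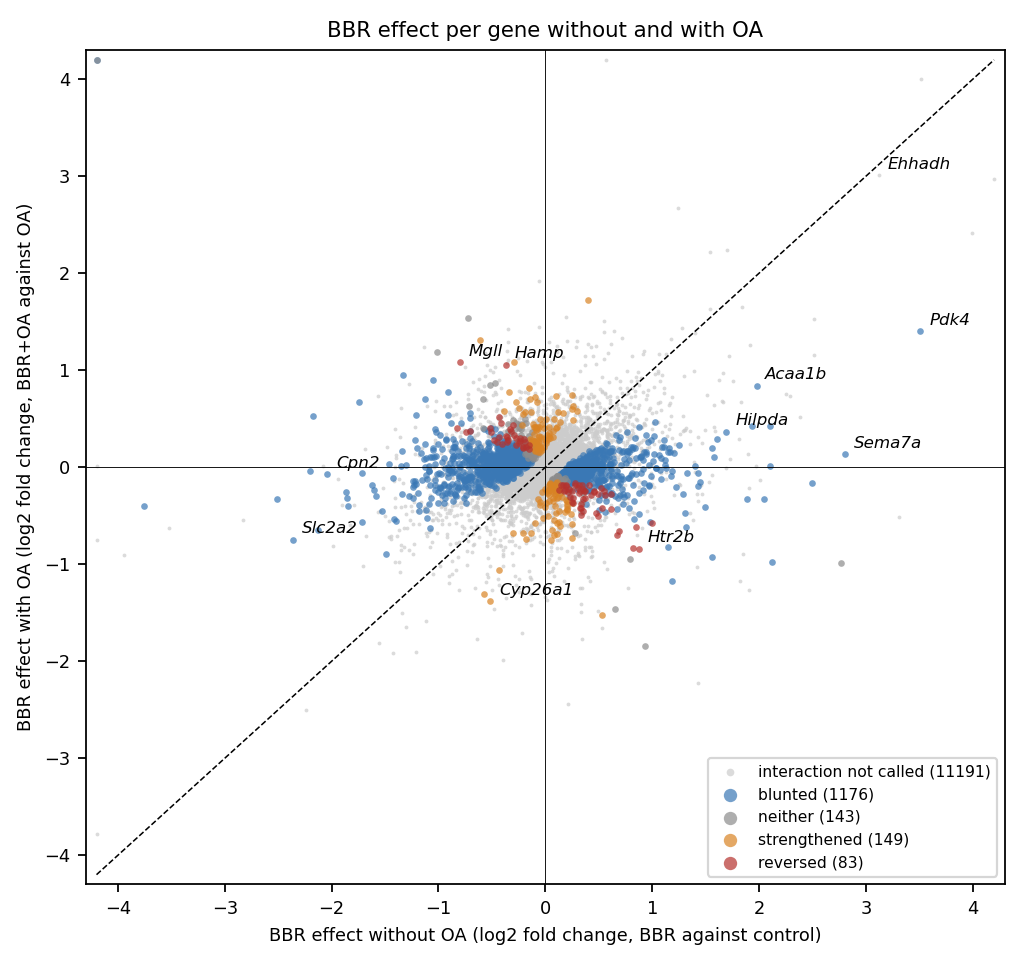
Effect of BBR on each of 12742 genes without OA (horizontal axis, log2 fold change of BBR against control) and with OA (vertical axis, log2 fold change of BBR+OA against OA), 3 libraries per group. Genes on the dashed line had equal effects in both. The 1176 blunted genes (blue) lie along the horizontal axis, the 149 strengthened genes (orange) along the vertical axis and the 83 reversed genes (red) in the upper left and lower right, and 7 genes beyond 4.2 are drawn at the edge.

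Among rises that OA blunted, Pdk4 and Sema7a stood at the top of the named genes. Pdk4 encodes the kinase that switches off pyruvate dehydrogenase in fasting and is a PPAR target (chr6:5483351-5496309, minus strand, GRCm38). Its level was 9.59, 9.26 and 10.5 CPM in control, 14.3, 15.9 and 11.8 CPM with OA, 116, 115 and 105 CPM with BBR and 39.1, 37.2 and 33.6 CPM with both. All 4 groups were apart from one another. BBR raised Pdk4 by 3.51 without OA and by 1.40 with OA, an interaction of -2.12 ± 0.13 (SE) (adjusted p = 2.46e-08, edgeR). Sema7a, a membrane-anchored semaphorin, was at 1.66, 1.96 and 2.23 CPM in control and 8.93, 18.7 and 14.1 CPM with BBR. With OA present it was at 1.36, 2.71 and 2.35 CPM without BBR and 2.38, 2.64 and 2.03 CPM with it, so that the BBR libraries stood alone. Its interaction was -2.67 ± 0.41 (SE) (adjusted p = 0.00029, edgeR). Ivl, the precursor of a cornified envelope protein, went from 30.8 ± 7.85 CPM in control to 76.2 ± 23.0 CPM with BBR (SD, n = 3) and from 41.1 ± 8.43 to 29.5 ± 6.54 CPM in the presence of OA, with an interaction of -1.78 ± 0.30 (SE) (adjusted p = 0.000647). Its control and BBR values did not overlap, whereas the OA and BBR+OA values did.

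Genes of lipid droplets and triglyceride synthesis split between the directions. Of 19 lipid droplet genes tested, 5 had a positive and 4 a negative interaction, and of 18 triglyceride synthesis genes 5 were positive and 4 negative, against 12.2% of all genes in either direction. Without OA replicate 2, 3 droplet genes were positive. Hilpda, a droplet protein that inhibits adipose triglyceride lipase and is induced by hypoxia and fatty acids (chr6:29272488-29275446, plus strand), was at 30.4, 37.4 and 34.2 CPM in control and 62.7, 64.7 and 65.3 CPM with OA. It reached 108, 119.8 and 103 CPM with BBR alone and 81.5, 82.8 and 84.4 CPM with both. OA and BBR each raised Hilpda when given alone, and the combination lay below BBR alone in every library. The rise with BBR was 1.69 without and 0.37 with OA (interaction -1.33 ± 0.092 (SE), adjusted p = 1.11e-07, edgeR). Plin2, the main coat protein of hepatocyte droplets, was far more abundant, with 998, 1015 and 904 CPM in control, 1285, 1288 and 1234 CPM with OA, 1702, 1684 and 1557 CPM with BBR and 1669, 1620 and 1593 CPM with both. The BBR and BBR+OA libraries overlapped, and both lay above the OA libraries. BBR thus raised Plin2 in both settings, by 0.76 and 0.36, with an interaction of -0.40 ± 0.071 (SE) (adjusted p = 0.00096).

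Acsl3, which activates fatty acids for droplet synthesis, Gpat3, which starts glycerolipid assembly, and Lpin1, a phosphatidate phosphatase, were other blunted rises, with interactions of -0.76, -0.61 and -0.68. BBR raised each without OA, by 0.85, 0.78 and 0.56, and none passed with OA. Vldlr, the receptor for very low density lipoprotein, was at 33.6, 40.1 and 38.2 CPM in control and at 70.8, 82.5 and 70.1 CPM with OA, 73.7, 87.1 and 96.7 CPM with BBR and 76.3, 88.7 and 82.1 CPM with both. The 3 treated groups overlapped and all lay above control, giving an interaction of -1.05 ± 0.13 (SE) (adjusted p = 4.22e-05). Fabp4, a fatty acid carrier of adipocytes and macrophages, showed another order: 15.9 ± 0.459 CPM in control, 25.9 ± 3.47 CPM with BBR, 61.2 ± 2.79 CPM with OA and 57.4 ± 0.319 CPM with both (SD, n = 3). The rise with BBR of 0.71 was replaced by an effect of -0.092 that did not pass. Gpd1, which supplies glycerol 3-phosphate, moved the other way, falling with BBR by a log2 change of -0.76 without OA and showing -0.12 with it (interaction 0.64, adjusted p = 0.00451, edgeR).

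Hypoxia-inducible genes had the highest share of called members among the 38 lists examined. All 17 members tested had a negative fitted interaction, and 15 of 17 passed (88.2%, against 12.2% of all genes in either direction and 5.31% negative), none of them positive. Without OA, BBR raised 16 of the 17 (12.3% of all genes rose), with a list median of 0.60. With OA it raised 1 (2.64% of all genes rose), with a median of 0.041. OA raised 13 of 17 without BBR (21.3% of all genes rose, 22.8% fell and 44.1% passed in either direction) and lowered 12 of 17 in its presence (18.2% of all genes fell). The first of these comparisons shares the control libraries with that of BBR alone, and the second its BBR libraries. Leaving out any single library gave 13 to 16 called members. The summed Kupffer cell markers were also highest with BBR, at 146 to 189 CPM against 107 to 123 CPM in control, 117 to 129 CPM with OA and 123 to 129 CPM with both. This followed 1 marker, Cd68: the other 10 tested summed to 30.8, 39.1 and 39.9 CPM with BBR, 34.1, 35.5 and 39.7 CPM in control, 37.7, 45.0 and 53.1 CPM with OA and 46.6, 51.8 and 63.4 CPM with both. The part of Cd68 or of the cells that carry it in this result was not tested.

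Egln3, a prolyl hydroxylase that marks hypoxia-inducible factor for degradation and is itself induced by it (chr12:54178981-54203860, minus strand), was at 104, 121 and 124 CPM in control, 168, 180.0 and 179.8 CPM with OA, 221, 228 and 234 CPM with BBR and 166, 189.9 and 179.5 CPM with both. The OA and BBR+OA libraries overlapped, between control and BBR. The interaction was -0.95 ± 0.087 (SE) (adjusted p = 4.63e-06, edgeR). Ankrd37, an ankyrin-repeat protein, had 15.2, 16.8 and 18.4 CPM in control and 26.0, 29.2 and 27.3 CPM with BBR. In OA medium the values without BBR, 20.4, 25.3 and 23.8 CPM, overlapped those with it, 17.4, 21.3 and 18.5 CPM, and the interaction was -0.98 ± 0.13 (SE) (adjusted p = 9.73e-05). Ndrg1, a stress-induced differentiation protein, was more abundant and averaged 238 ± 29.3 CPM in control and 483 ± 41.9 CPM with BBR, against 338 ± 34.3 and 371 ± 43.6 CPM in OA medium (SD, n = 3), an interaction of -0.89 (adjusted p = 0.000211).

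Promoters of this group are shown because its members moved together and because the factor they share reads a short motif. RefSeq windows of 250 bases before the most 5′ start were available for 13 of the 17 members and for 9646 of the genes tested. The core of the hypoxia response element, ACGTG on either strand, occurred in 7 of the 13 (53.8%), against 21.7% of all windows. This core is also part of CACGTG, the E-box read by other factors. Stretches of 80 bases from 4 members whose window lies wholly before the annotated gene are given in GRCm38.p6 on the gene's strand, with the core in capitals, as ACGTG or as its complement CACGT. They lie at chr12:54204045-54204124 (minus strand), chr10:59951916-59951995 (minus), chr7:138909572-138909651 (minus) and chr10:59323216-59323295 (plus).
Egln3: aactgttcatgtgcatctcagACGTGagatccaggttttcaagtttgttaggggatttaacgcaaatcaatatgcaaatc
Ddit4: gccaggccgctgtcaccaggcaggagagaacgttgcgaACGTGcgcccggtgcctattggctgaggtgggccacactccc
Bnip3: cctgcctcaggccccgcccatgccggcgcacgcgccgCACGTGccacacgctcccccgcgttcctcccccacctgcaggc
P4ha1: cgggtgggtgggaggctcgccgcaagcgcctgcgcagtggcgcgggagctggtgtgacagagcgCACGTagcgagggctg
The letters are a description of these windows and were not tested for function. Ddit4, Bnip3 and P4ha1 (an mTOR inhibitor, a mitophagy receptor and a collagen prolyl hydroxylase) were picked for this display after their values were seen, and their interactions were -0.57, -0.76 and -0.31.

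**Figure D2:**
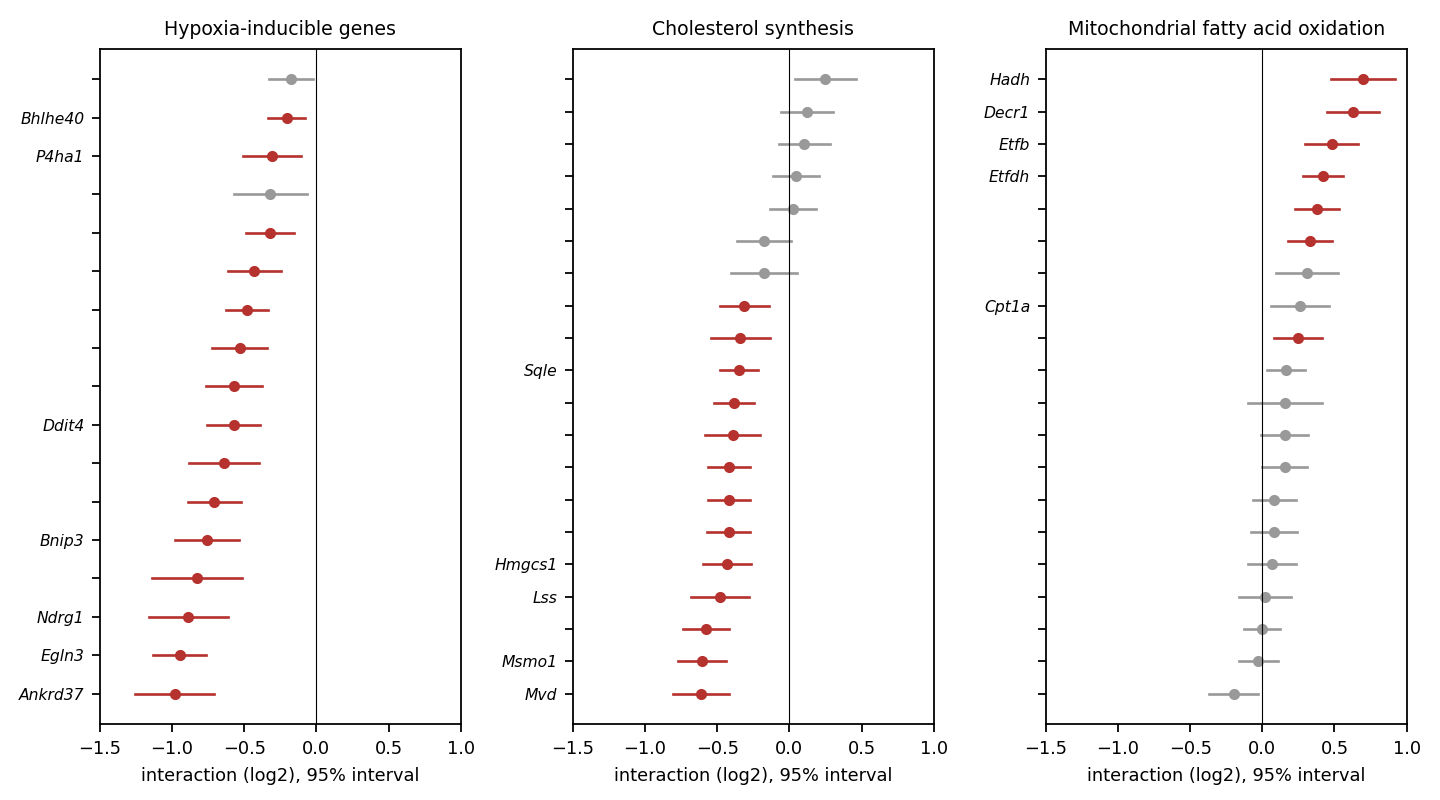
Interaction of BBR and OA (log2, horizontal axis) with its 95% interval for every tested member of 3 lists, 17 hypoxia-inducible genes, 20 cholesterol synthesis genes and 20 genes of mitochondrial fatty acid oxidation. Red marks an adjusted p under 0.05, and only members named in the text carry a label. The first list lies wholly to the left of 0, 13 of the second are called to the left and 7 of the third to the right.

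Hmox1, the heme oxygenase that NRF2 and hypoxia both induce, moved in the direction of the hypoxia genes, with 208 ± 31.2 CPM in control and 408 ± 49.1 CPM with BBR, against 289 ± 60.0 and 254 ± 33.2 CPM in OA medium (SD, n = 3). Its interaction was -1.15 ± 0.18 (SE) (adjusted p = 0.000394, edgeR). Of the 30 NRF2 targets tested, 2 were negative and 7 positive (5.31% and 6.87% of all genes). Without any of 5 libraries (BBR 2, BBR+OA 2, BBR+OA 3, OA 2 or control 2), 4 were positive. Slc7a11, the cystine importer that both NRF2 and the integrated stress response control, was reversed, with 0.37 without and -0.24 with OA (interaction -0.62, adjusted p = 5.25e-05). The integrated stress response list of 25 genes had 5 negative and 1 positive calls, against the same shares of all genes. Vldlr and Slc7a11 were 2 of the negative calls, and 3 genes were called negative without BBR replicate 2, BBR replicate 3 or control replicate 1.

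Falls that OA blunted included many genes of the differentiated functions of hepatocytes. Of 37 genes of amino acid catabolism tested, 16 had a positive interaction (43.2%, against 6.87% of all genes) and none a negative, and all 16 were blunted falls. BBR lowered 21 of the 37 without OA (14.9% of all genes fell), with a median of -0.36, and 3 with OA (3.27% of all genes fell), with a median of 0.054. The 16 calls became 14 to 17 when a single library was left out.

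Kynu, kynureninase of tryptophan breakdown (chr2:43555329-43682715, plus strand), was at 22.9, 26.0 and 24.1 CPM in control and 21.2, 18.8 and 20.6 CPM with OA, 10.7, 8.76 and 11.9 CPM with BBR and 16.4, 19.8 and 17.6 CPM with both. The BBR libraries were lower than all others, and the BBR+OA libraries overlapped those with OA. The fall was -1.21 without OA and -0.17, not passing, with OA (interaction 1.04 ± 0.14 (SE), adjusted p = 8.61e-05, edgeR). Acmsd, which diverts tryptophan carbon away from NAD synthesis, was at 14.8, 16.9 and 12.8 CPM in control and 6.31, 5.80 and 6.62 CPM with BBR. OA lifted it to 40.6, 39.2 and 39.3 CPM alone and 32.3, 37.1 and 33.9 CPM with BBR, so the effect of OA was 1.42 without and 2.46 with BBR (interaction 1.04, adjusted p = 6e-05). Mat1a, which makes S-adenosylmethionine, fell from 55.5 ± 2.86 to 29.5 ± 1.54 CPM with BBR and stood at 41.4 ± 4.30 and 41.4 ± 0.715 CPM in OA medium (SD, n = 3, interaction 0.91, adjusted p = 1.78e-05). Gpt2, the mitochondrial alanine aminotransferase, was at 191, 193 and 176 CPM in control, 227, 213 and 205 CPM with OA, 81.8 to 104 CPM with BBR and 212, 228 and 228 CPM with both. Its BBR libraries lay below all others without overlap (interaction 1.02 ± 0.10 (SE), adjusted p = 5.7e-06).

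Nitrogen disposal showed the same direction in its leading genes. In the urea cycle and glutamine list of 14 genes, 5 were positive and 2 negative, all of them blunted (6.87% and 5.31% of all genes). Of the 12 fits that left out a library, 8 gave 3 positive calls, and 6 gave 1 negative call. Cps1, the entry enzyme of the urea cycle, was at 19.5, 16.5 and 17.7 CPM in control and 12.2, 8.69 and 8.23 CPM with BBR. Its level was 199.9, 171 and 161 CPM with OA and 185, 207 and 186 CPM with both, so OA raised it by 3.31 without and by 4.29 with BBR. BBR lowered Cps1 without OA by a log2 change of -0.86, whereas the effect with OA was 0.12 (interaction 0.98 ± 0.15 (SE), adjusted p = 0.000353, edgeR). The OA effect was far larger than the BBR effect in both settings. Glud1, glutamate dehydrogenase, fell from 1324 ± 50.8 to 866 ± 65.8 CPM with BBR, and in OA medium the means were 895 ± 39.1 and 952 ± 19.1 CPM (interaction 0.70, adjusted p = 1.78e-05). Slc25a15, the mitochondrial ornithine carrier, had an interaction of 0.50 (adjusted p = 0.00129), and Arg1, arginase, was a blunted rise with -0.47 (adjusted p = 0.0179).

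Glucose handling gave calls of both signs. The list of glucose sensing, glycolysis and fructolysis held 22 tested genes, 4 positive and 6 negative, all blunted (45.5%, against 12.2% of all genes). Slc2a2, the GLUT2 glucose transporter of hepatocytes (chr3:28697903-28731359, plus strand), was at 58.6, 51.0 and 77.0 CPM in control, 52.2, 41.9 and 77.9 CPM with OA, 10.4, 10.1 and 15.9 CPM with BBR and 29.9, 36.0 and 36.6 CPM with both. BBR and BBR+OA libraries lay below all 6 others and did not overlap each other. The fall was -2.36 without OA and -0.75 with OA, both passing (interaction 1.61 ± 0.28 (SE), adjusted p = 0.000923, edgeR). Slc16a12, a creatine transporter, was at 7.73, 6.63 and 7.54 CPM in control and 2.02, 2.25 and 1.72 CPM with BBR, and at 9.90, 8.98 and 10.4 and 8.45, 8.67 and 7.45 CPM in the OA and BBR+OA libraries (interaction 1.62, adjusted p = 2.06e-05). The BBR libraries were apart from the other 9. In the gluconeogenesis list 5 of 15 genes were positive (33.3%, against 6.87% of all genes) and none negative, with Gpt2 as the largest. However, 1 to 3 genes were called in 8 of the 12 leave-one-out fits, the lowest without BBR+OA replicate 3, OA replicate 2 or control replicate 3.

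Lipogenic and bile acid genes were also among the blunted falls. Acaca, acetyl-CoA carboxylase of fatty acid synthesis, was at 211, 178 and 262 CPM in control, 89.4, 75.3 and 98.5 CPM with OA, 85.8, 73.3 and 98.3 CPM with BBR and 71.1, 72.7 and 73.7 CPM with both. All 9 treated libraries lay below the control libraries, and the interaction was 1.06 ± 0.17 (SE) (adjusted p = 0.000353, edgeR). Scd2, a stearoyl-CoA desaturase, was a blunted rise in the same list, with 1.11 without and 0.21 with OA (interaction -0.90, adjusted p = 0.000344). The 20 fatty acid synthesis genes had 5 positive and 4 negative calls (45.0%, against 12.2% of all genes). Of 16 bile acid genes, 5 were positive (6.87% of all genes) and none negative. BBR lowered 8 of the 16 without OA (14.9% of all genes fell) and none with it (3.27% of all genes fell). Nr1h4, the bile acid receptor FXR, was at 15.3, 15.8 and 15.5 CPM in control, 8.79, 7.47 and 7.70 CPM with BBR, 9.17, 8.61 and 12.5 CPM with OA and 10.4, 11.3 and 10.7 CPM with both, which put control above the other 9 libraries (interaction 1.04 ± 0.16 (SE), adjusted p = 0.00034). Without BBR replicate 2 or 3, BBR+OA replicate 3 or OA replicate 2, 3 bile acid genes were called.

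Among secreted proteins of the liver, most members were not called, and most of the calls were positive. In the list of plasma transport proteins and apolipoproteins, 16 of 29 fitted interactions were negative, with a median of -0.028. Against 6.87% of all genes positive and 5.31% negative, calls were 11 positive and none negative among 29 acute-phase and inflammatory genes, 9 positive and 1 negative among 37 complement and coagulation genes, and 5 positive and none negative among 29 plasma transport proteins and apolipoproteins. Hp, haptoglobin, was at 1832, 1948 and 1746 CPM in control, 1979, 1824 and 2103 CPM with OA, 1091, 951 and 1066 CPM with BBR and 1781, 1870 and 2018 CPM with both. The BBR libraries lay below the other 9 (interaction 0.77 ± 0.090 (SE), adjusted p = 3.32e-05, edgeR). The chemokines Cxcl1 and Ccl2 were lowered by BBR without OA, by log2 changes of -1.40 and -0.71, and had interactions of 0.84 and 0.78 (adjusted p = 0.00768 and 0.00415). Ccl2 was at 94.3 ± 8.02 CPM in control and 57.3 ± 14.3 CPM with BBR, but at 342 ± 21.0 and 361 ± 48.6 CPM in OA medium (SD, n = 3). Cpn2, a subunit of the plasma carboxypeptidase that inactivates complement fragments, was at 8.93, 7.73 and 7.54 CPM in control, 4.42, 4.06 and 3.06 CPM with OA, 2.62, 1.35 and 1.72 CPM with BBR and 3.85, 3.22 and 3.87 CPM with both (interaction 1.97, adjusted p = 0.00012). F7 (coagulation factor VII), Masp1 (a lectin-pathway protease) and Serpinf2 (the plasmin inhibitor) had interactions of 0.93, 0.82 and 0.66, and Serpina7 (the thyroxine carrier) and Apon (an apolipoprotein) of 0.99 and 0.79. Each of these 5 was a blunted fall.

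Drug-metabolizing genes differed by class. Of 42 conjugating and other non-P450 drug enzymes, 10 were positive (6.87% of all genes) and none negative. Adh1, alcohol dehydrogenase, and the glucuronosyltransferases Ugt2b35 and Ugt2b36 had interactions of 0.74, 0.70 and 0.65, each after a fall with BBR alone (-0.52, -0.87 and -0.89). Near-identical family members can share reads, so values of single Ugt, Gst, Cyp, Acot and Acaa1 genes are uncertain. Of 33 cytochrome P450 genes of families 1 to 3, 3 passed (9.09%, against 12.2% of all genes), 1 positive and 2 negative. This count rested on single libraries: without BBR+OA replicate 1, 5 were negative and none positive, and without BBR replicate 1, 3 were positive. Cyp2d26 was reversed (0.25 without and -0.25 with OA, interaction -0.49, adjusted p = 0.00264). Major drug-metabolizing P450 genes did not pass. Cyp2c29 had an interaction of -0.12 (95% interval -0.42 to 0.18) and Cyp3a11 of -0.26 (-0.45 to -0.068). Cyp2b10, which OA raised from 0.859 ± 0.133 to 12.3 ± 2.25 CPM, had 0.28 (-0.57 to 1.13).

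Regulators of the hepatocyte program were called 10 times positive and 1 time negative among 24 transcription factors, against 6.87% and 5.31% of all genes. Besides Nr1h4, Nr1i2, the xenobiotic receptor PXR, was a blunted fall (-0.72 without and 0.012 with OA, interaction 0.73, adjusted p = 0.001, edgeR). Onecut2 was a blunted rise with -0.67 (adjusted p = 0.000151). This list depended on single libraries, with 4 to 6 positive calls without BBR replicate 2 or 3, BBR+OA replicate 1 or 3, OA replicate 2 or control replicate 1 or 2. Of 17 biliary and dedifferentiation markers, 2 were positive and 4 negative, against 6.87% and 5.31% of all genes. Their fitted interactions were positive in 10 and negative in 7, with a list median of 0.032. Among the negative calls, Sox9 and Cldn4, markers of biliary cells and of dedifferentiating hepatocytes, were blunted rises, with interactions of -0.79 and -0.77 (adjusted p = 0.000941 and 0.00209). The 2 positive calls were Spp1, osteopontin, a blunted fall at 0.54 (adjusted p = 0.00501), and Tubb2b, a tubulin, at 0.52.

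**Figure D3:**
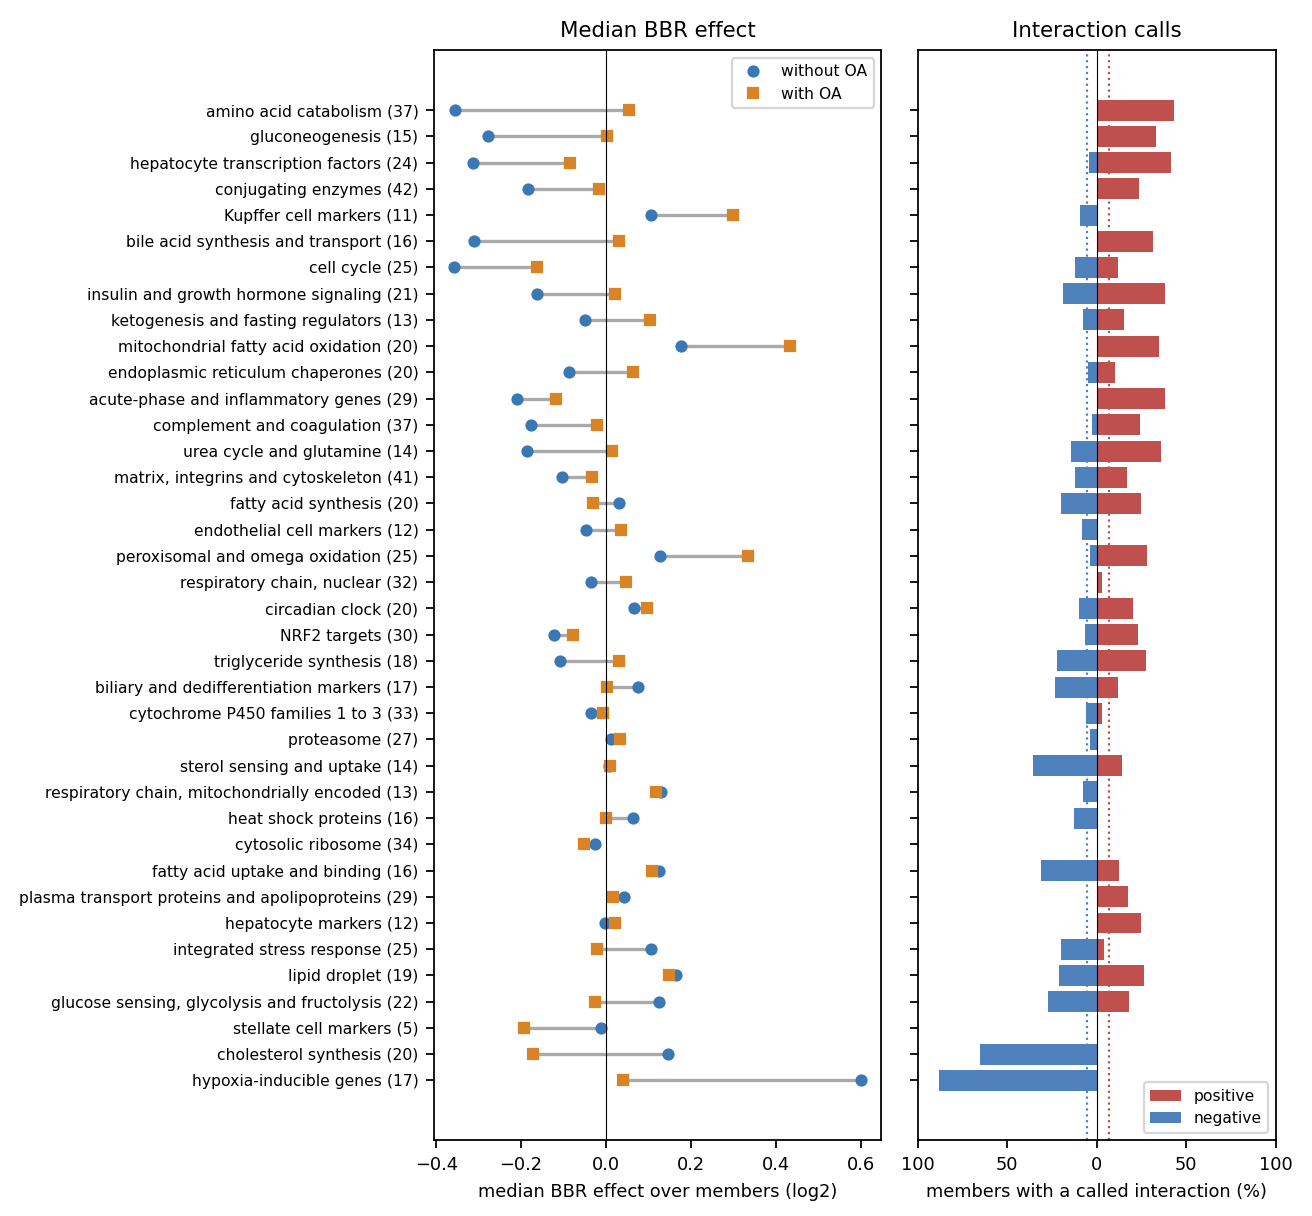
Median effect of BBR over the members of 38 gene lists without OA (blue circles) and with OA (orange squares), and the percentage of members with a called interaction, positive to the right and negative to the left. Dotted lines mark 6.87% and 5.31%, the percentages over all genes, and the number of genes tested is in parentheses. Hypoxia-inducible genes move from 0.60 to 0.041 and amino acid catabolism from -0.36 to 0.054, while both oxidation lists move to the right.

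In cholesterol synthesis the called responses to BBR were mostly rises without OA and all falls with OA. Of 20 genes tested, 13 had a negative interaction (65.0%, against 5.31% of all genes) and none a positive. BBR raised 9 and lowered 2 without OA (12.3% of all genes rose and 14.9% fell). With OA it raised none and lowered 8 (2.64% of all genes rose and 3.27% fell). The list median went from 0.15 to -0.17. By class, 5 were blunted, 4 reversed, 3 strengthened and 1 neither. OA raised 16 of the 20 without BBR (21.3% of all genes rose). In the presence of BBR it raised 7 (19.4% of all genes rose and 37.6% passed in either direction). Leaving out a library gave 11 to 13 calls.

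Msmo1, a sterol demethylase (chr8:64718139-64733792, minus strand), was at 221, 235 and 221 CPM in control, 375, 407 and 394 CPM with OA, 275, 318 and 276 CPM with BBR and 332, 343 and 315 CPM with both. The control libraries were lowest and the OA libraries highest, with BBR and BBR+OA overlapping between them. BBR raised Msmo1 by 0.36 without OA and lowered it by a log2 change of -0.25 with OA. The interaction was -0.61 ± 0.079 (SE) (adjusted p = 7.45e-05, edgeR). Mvd, mevalonate diphosphate decarboxylase, was reversed as well (0.25 and -0.36, interaction -0.61, adjusted p = 0.00029). Hmgcs1, the synthase at the head of the pathway, did not pass without OA (0.11) and fell with it (-0.32, interaction -0.43, adjusted p = 0.00131). Sqle, squalene epoxidase, and Lss, lanosterol synthase, were blunted rises with -0.35 and -0.48 (adjusted p = 0.00102 and 0.00289).

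Sterol sensing genes of the same pathway behaved partly alike. Insig1, the protein that retains SREBP in the endoplasmic reticulum and is itself an SREBP target, was at 101, 115 and 112 CPM in control, 142, 166 and 136 CPM with OA, 195, 236 and 209 CPM with BBR and 129, 134 and 126 CPM with both. The BBR libraries lay above all others (interaction -1.16 ± 0.10 (SE), adjusted p = 4.63e-06, edgeR). In this list 5 of 14 genes were negative and 2 positive, against 5.31% and 6.87% of all genes. Without BBR replicate 2 or 3, BBR+OA replicate 1 or OA replicate 1, 3 were negative. No positive call was made without BBR replicate 2, OA replicate 2, replicate 1 or 3 of BBR+OA, or replicate 1 or 2 of the control, and 1 was made without BBR+OA replicate 2 or replicate 1 or 3 of OA.

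Windows before the start were available for 15 of the 20 cholesterol synthesis genes. The sterol regulatory element letters TCACNCCAC, searched on both strands, were in 1 of them, Hmgcs1 (6.67%, against 0.985% of all windows). CCAAT, the box read by NF-Y, a partner of SREBP-2, was in 13 of the 15 (86.7%, against 36.8%). For 3 called members whose stretch of 80 bases lies before the annotated gene, the box is shown in capitals, as CCAAT or as its complement ATTGG. They lie at chr8:122443423-122443502 (minus strand), chr13:119690268-119690347 (plus) and chr10:76531505-76531584 (plus) in GRCm38.p6.
Mvd: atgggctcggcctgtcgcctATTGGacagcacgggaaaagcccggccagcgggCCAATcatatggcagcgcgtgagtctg
Hmgcs1: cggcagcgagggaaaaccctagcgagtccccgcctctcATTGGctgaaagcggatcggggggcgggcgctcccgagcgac
Lss: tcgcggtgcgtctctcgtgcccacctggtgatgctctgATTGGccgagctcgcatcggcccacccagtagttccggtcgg
CCAAT was also in 46.2% of the hypoxia-inducible windows and 62.5% of the amino acid catabolism windows, and ACGTG in 13.3% of the cholesterol synthesis windows, so neither set of letters belongs to a single list.

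Reversed genes outside the sterol pathway included both rises and falls. Mgll, monoacylglycerol lipase (chr6:88724412-88828360, plus strand), was at 11.9, 9.79 and 13.1 CPM in control and 8.56, 5.22 and 5.92 CPM with BBR, but at 6.17, 3.57 and 6.95 CPM with OA and 12.8, 10.3 and 12.3 CPM with both. BBR lowered it without OA (-0.80) and raised it with OA (1.08), without overlap in either comparison (interaction 1.88 ± 0.27 (SE), adjusted p = 0.000162, edgeR). Hamp, hepcidin, the hormone that blocks iron export (chr7:30942368-30944032, minus strand), was at 168, 171 and 167 CPM in control, 153, 122 and 150.4 CPM with OA, 150.0, 105 and 136 CPM with BBR and 308, 272 and 303 CPM with both. The BBR+OA libraries lay above the other 9. The effect of BBR was -0.37 without and 1.06 with OA (interaction 1.42 ± 0.13 (SE), adjusted p = 5.7e-06). Elovl2, an elongase of polyunsaturated fatty acids, and Kalrn, a guanine nucleotide exchange factor, were 2 further falls that became rises, with interactions of 1.23 and 1.10 (adjusted p = 3.89e-05 and 2.02e-05). Apoa5, an activator of lipoprotein lipase, went from -0.30 to 0.44, and Socs2, the feedback inhibitor of growth hormone signaling, from -0.36 to 0.32.

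Rises that became falls were led by Htr2b, a serotonin receptor, with 8.28, 11.9 and 12.4 CPM in control, 14.8, 23.4 and 22.6 CPM with BBR, 4.98, 7.47 and 6.13 CPM with OA and 3.04, 3.75 and 3.63 CPM with both. The BBR+OA libraries were the lowest of all (interaction -1.71 ± 0.28 (SE), adjusted p = 0.000558, edgeR). Irx3, a homeobox factor, rose with BBR from 2.29 ± 0.313 to 4.60 ± 0.691 CPM and fell from 10.2 ± 2.02 to 6.88 ± 0.345 CPM in OA medium (interaction -1.57, adjusted p = 0.000195). Nat8f4, an acetyltransferase family member, and XLOC_006405, an assembled locus with no gene name, followed with -1.46 and -1.66. Cdkn1a, the cell cycle inhibitor p21, changed by 0.27 without and -0.16 with OA (interaction -0.44, adjusted p = 0.000208), and Ankrd1, a target of mechanical signaling, by -0.35 and 0.28 (interaction 0.63, adjusted p = 5.59e-05).

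Several genes of fatty acid oxidation had a response to BBR that was strengthened by OA. Of 20 genes of mitochondrial fatty acid oxidation, 7 were positive (35.0%, against 6.87% of all genes) and none negative. BBR raised 11 and lowered 2 without OA (12.3% of all genes rose and 14.9% fell), and raised 15 and lowered none with OA (2.64% rose and 3.27% fell), with medians of 0.18 and 0.43. Of the 7, 5 were strengthened and Hadh was reversed. In the peroxisomal and omega oxidation list 7 of 25 were positive and 1 negative, 6 of them strengthened, the medians being 0.13 and 0.33. Without OA replicate 2, 3 peroxisomal genes were positive, whereas 6 to 8 mitochondrial genes were positive without each library in turn.

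Etfdh and Etfb encode the chain that passes electrons from acyl-CoA dehydrogenases to ubiquinone. Etfdh (chr3:79603788-79629500, minus strand) was at 86.2, 84.8 and 86.4 CPM in control, 108, 103 and 108 CPM with OA, 89.5, 82.0 and 83.1 CPM with BBR and 136, 139.9 and 147 CPM with both. Control and BBR overlapped, while BBR+OA lay above OA in every library. BBR had an effect of -0.014 without and 0.41 with OA (interaction 0.42 ± 0.065 (SE), adjusted p = 0.000308, edgeR). Etfb showed the same pattern, with -0.061 and 0.42 (interaction 0.48, adjusted p = 0.00111). Decr1, a reductase in the breakdown of unsaturated fatty acids, was at 40.7, 40.4 and 38.8 CPM in control, 42.4, 43.0 and 43.5 CPM with BBR, 30.7, 25.7 and 30.1 CPM with OA and 47.8, 47.2 and 48.8 CPM with both. OA lowered Decr1 without BBR (-0.47), and the effect of OA in the presence of BBR was 0.16 (interaction 0.63 ± 0.086 (SE), adjusted p = 0.000112). Hadh, the hydroxyacyl-CoA dehydrogenase, went from -0.33 without to 0.37 with OA (interaction 0.70, adjusted p = 0.000251).

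Among peroxisomal genes, Ech1, a dienoyl-CoA isomerase, rose with BBR in both settings and more with OA (0.25 and 0.74, interaction 0.49, adjusted p = 0.000488, edgeR). Acaa1a, a peroxisomal thiolase, passed only the comparison with OA (0.28, interaction 0.41, adjusted p = 0.0013), and Crot, carnitine octanoyltransferase, was reversed (-0.46 and 0.26). Acaa1b, the other thiolase and a classical PPAR alpha target, was the only negative call of the list, in which 14 fitted interactions were positive and 11 negative. It was at 31.0, 24.1 and 25.0 CPM in control, 12.7, 12.2 and 10.8 CPM with OA, 125, 92.9 and 95.3 CPM with BBR and 21.3, 20.9 and 21.7 CPM with both. The BBR libraries were highest and the BBR+OA libraries lay below control, with an interaction of -1.13 ± 0.17 (SE) (adjusted p = 0.000223).

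Slc27a2, a very long-chain acyl-CoA synthetase and transporter, was at 37.2, 34.6 and 35.3 CPM in control and 20.7, 17.3 and 19.9 CPM with OA, and at 40.5, 25.6 and 29.0 and 37.2, 31.2 and 33.8 CPM in the BBR and BBR+OA libraries. Only the OA libraries stood apart (interaction 0.98 ± 0.17 (SE), adjusted p = 0.000822, edgeR). The related Slc27a1 moved the opposite way, a strengthened fall with 0.10 without and -0.47 with OA (interaction -0.58, adjusted p = 0.0103). Tcf7l2, a Wnt-pathway transcription factor, was another strengthened fall, from 7.46 ± 0.308 to 4.43 ± 0.0989 CPM in OA medium and from 8.65 ± 0.872 to 8.98 ± 0.441 CPM without (SD, n = 3, interaction -0.80, adjusted p = 0.00191). Atoh8, a helix-loop-helix factor, was classed as a strengthened rise (-0.34, not passing, without and 0.77 with OA, interaction 1.11, adjusted p = 0.00124). Its mean was 10.4 CPM in control, 8.14 CPM with BBR, 3.94 CPM with OA and 6.78 CPM with both. The rise with BBR in OA medium thus stayed below control.

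**Figure D4:**
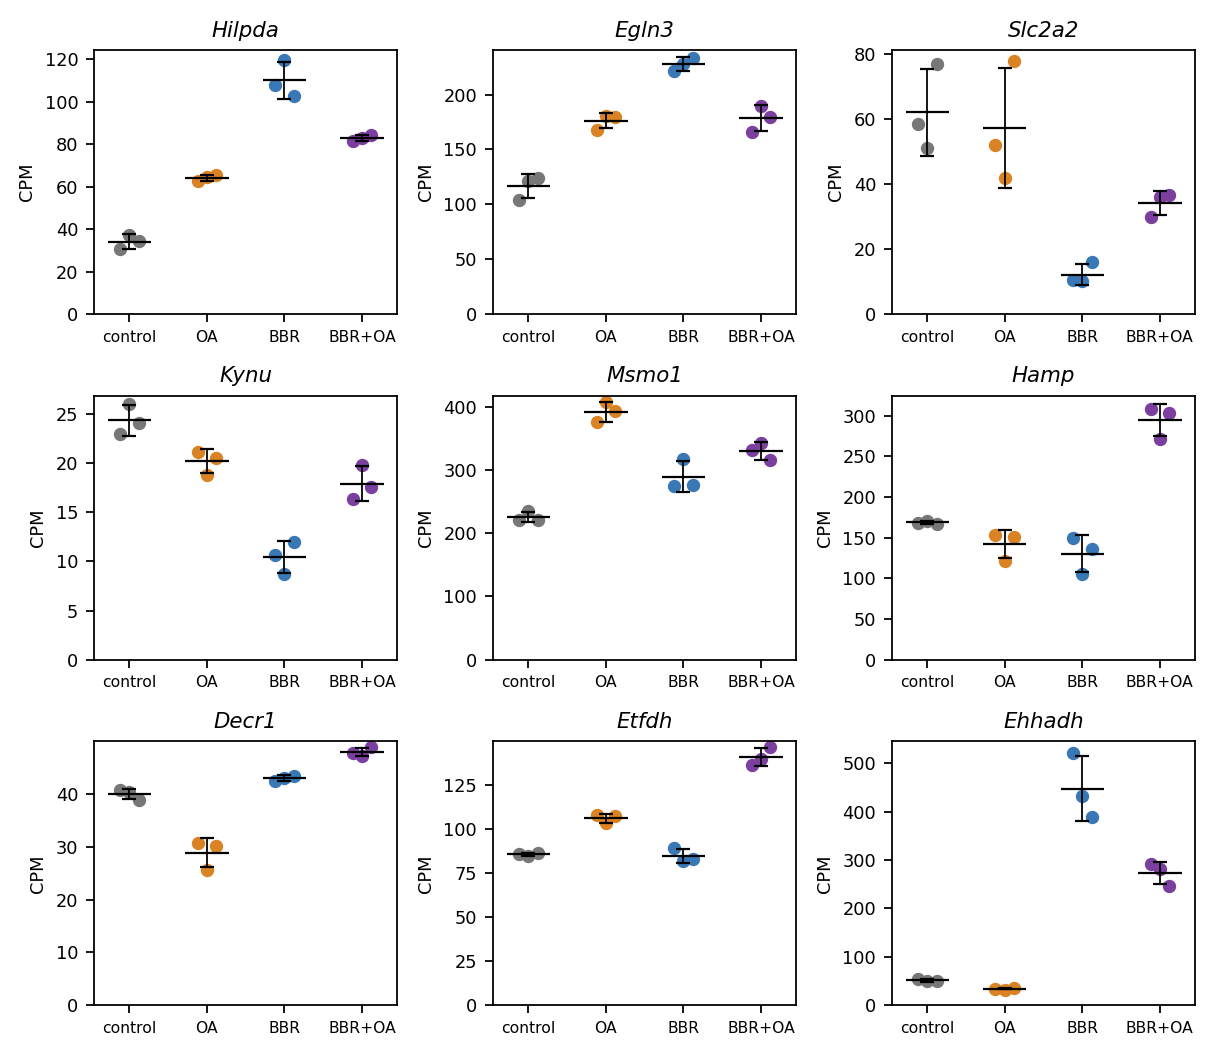
CPM of 9 genes in each of the 12 libraries, 3 per group (points), with the mean (bar) and SD (whiskers), on linear axes that start at 0. Hilpda and Egln3 are blunted rises, Slc2a2 and Kynu blunted falls, Msmo1 and Hamp reversed, Decr1 and Etfdh strengthened, and Ehhadh did not pass the interaction test.

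Several PPAR targets that BBR raised both without and with OA did not pass the interaction test. Ehhadh, the peroxisomal bifunctional enzyme, was at 54.2, 50.4 and 49.7 CPM in control, 34.5, 32.5 and 34.9 CPM with OA, 520.5, 431 and 389.6 CPM with BBR and 291, 281 and 247 CPM with both. BBR raised it by 3.12 without and 3.01 with OA, and the interaction of -0.11 had a 95% interval of -0.37 to 0.14. Acot1, an acyl-CoA thioesterase, rose by 3.52 and 4.00 (interaction 0.47, interval -0.34 to 1.28). Cpt1a, the gate of mitochondrial import, rose by 0.53 and 0.79, and its interaction of 0.26 (0.061 to 0.46) missed the threshold at an adjusted p of 0.0837. Cidec, a droplet fusion protein, rose by 1.07 and 0.89 (interaction -0.18, interval -0.57 to 0.21). Cd36, a fatty acid receptor, and Cyp4a10, an omega hydroxylase, had interactions of -0.29 (-0.85 to 0.27) and -0.19 (-0.74 to 0.36), and Angptl4, a lipase inhibitor, of -0.17 (-0.36 to 0.016). A rise with BBR passed for each of these 7 genes both without and with OA. The receptors themselves did not pass either, with -0.31 (-0.61 to -0.0081) for Pparg (adjusted p = 0.182, edgeR), -0.18 (-0.60 to 0.24) for Ppara and 0.055 (-0.18 to 0.29) for Ppard. Fgf21, a fasting hormone, lay at 0.487 to 1.81 CPM over all libraries, and its interval of -0.54 to 2.10 was wide.

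Calls in housekeeping lists were few, against 12.2% of all genes. None of 34 cytosolic ribosome genes, 1 of 27 proteasome genes, 1 of 32 nuclear and 1 of 13 mitochondrially encoded respiratory chain genes passed. Ribosome medians were -0.027 without and -0.051 with OA. Stress chaperones lay near the share of all genes, with 2 negative calls among 16 heat shock genes (12.5%) and 2 positive and 1 negative among 20 endoplasmic reticulum chaperones (15.0%). No chaperone was positive without replicate 2 or 3 of BBR, replicate 2 or 3 of BBR+OA, or OA replicate 2, and 6 were positive with a replicate block.

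Growth signaling, matrix and clock lists held calls of both signs. In the insulin and growth hormone list, 8 of 21 genes were positive and 4 negative, against 6.87% and 5.31% of all genes. Without OA replicate 2, 4 were positive, and 5 without BBR replicate 2 or without replicate 1 or 3 of BBR+OA. Without BBR replicate 2, 2 were negative. Of 41 matrix, integrin and cytoskeleton genes 7 were positive and 5 negative. Without OA replicate 2, 4 were positive and 1 negative, and 1 was negative without BBR replicate 2, 2 without control replicate 3 and 3 without control replicate 2. Col18a1, a basement membrane collagen, was a blunted fall (-0.54 and 0.015, interaction 0.56, adjusted p = 0.000151). The 20 clock genes had 4 positive and 2 negative calls and the 25 cell cycle genes 3 of each, against 6.87% of all genes positive and 5.31% negative. Both depended on single libraries. No clock gene was negative without BBR replicate 2, BBR+OA replicate 3, OA replicate 2 or replicate 1 or 2 of the control, and 1 or 2 were positive without BBR replicate 2, OA replicate 2 or replicate 2 or 3 of BBR+OA. No cell cycle gene was positive without OA replicate 2, and 1 was without BBR replicate 2, replicate 1 or 2 of BBR+OA, or control replicate 1.

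Markers of other cells were called at shares near or below the 12.2% of all genes, and these lists are too short to tell such shares apart. In bulk RNA, fewer cells of a type and less RNA per cell cannot be told apart. All 12 Kupffer cell markers had a mean of at least 0.1 CPM. Of 11 tested, 7 had a positive fitted interaction, with a list median of 0.21, and 1 passed (9.09%), Cd68, which was negative, at 67.0, 88.8 and 84.6 CPM in control, 63.1, 88.0 and 83.5 CPM with OA, 106, 149.6 and 139 CPM with BBR and 59.5, 82.4 and 73.5 CPM with both (interaction -0.83 ± 0.19 (SE), adjusted p = 0.00765, edgeR). Among 12 endothelial markers 1 passed (8.33%) and among 5 stellate markers none.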

How the data were processed

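RNA was sequenced from primary mouse hepatocytes after poly(A) selection and random priming, with 3 libraries in each of 4 groups. The authors deposited estimated counts and FPKM values per gene for each library, mapped to mm10 per the submitters' processing notes. The aligner, counting program and strand setting are not given in the sources used here, so overlapping antisense genes and near-identical copies are uncertain. The deposited estimated counts, fractional for 2862 of 22471 features, were rounded to whole numbers, and the deposited FPKM values were not used. Library totals of 15485508 to 23668379 put the counting floor of 3 counts at 0.127 to 0.194 CPM.

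Counts were scaled by TMM, filtered with filterByExpr (minimum count 10) and fitted with group means in edgeR 4.0.16 (quasi-likelihood F test, two-sided, R 4.3.3). Benjamini-Hochberg adjustment ran over all 12742 genes, and SE and 95% intervals were derived from the F statistic. Members, lists and classes were chosen with earlier results of these data known. Genes named were, for each class and sign of its defining effect, the 4 largest absolute interactions with at least 5 CPM in the highest group and no overlap between the compared libraries. To these came up to 4 called members per list with the largest absolute interaction and at least 5 CPM, and a set of PPAR, sterol and P450 genes. Chromosomes, starts and ends are from GENCODE M21 (GRCm38), which held 99.71% of the identifiers. Promoters are from RefSeq (GRCm38.p6), 1 most 5′ window per gene where the table held one. Some genes are counted in their lists but not reported here.

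On simulated counts for the interaction (12653 genes tested), 80% of changes of 0.5 and 98% of changes of 1 on the log2 scale were recovered, with 11 calls among 12453 unchanged genes. Alternatives were DESeq2 1.42.0, limma 3.58.1 (voom), other scalings and filters, removal of a GC trend, a replicate block and leaving out each library. Figures were drawn with matplotlib 3.10.9.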

Additional observations from a re-analysis of the deposited data

Results flagged for a closer look

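The effect of BBR differed between cultures with and without OA for 1551 genes by the interaction term in edgeR's quasi-likelihood test, and the named genes that passed are given here with their log2 interactions. No explanation was weighed.

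Lipid storage, uptake and signaling covered both signs. Droplet genes were Mgll (1.88), Bscl2 (0.87), Plin5 (0.84), Plin2 (-0.40) and Hilpda (-1.33). For triglyceride synthesis the values were -0.76 for Acsl3, -0.68 for Lpin1, -0.61 for Gpat3 and 0.64 for Gpd1. Uptake genes were Slc27a2 (0.98), Slc27a1 (-0.58), Vldlr (-1.05) and Fabp4 (-0.80). Fatty acid synthesis held Elovl2 (1.23), Acaca (1.06), Tkfc (0.59) and Scd2 (-0.90). Oxidation genes were positive for Hadh (0.70), Decr1 (0.63), Etfb (0.48), Etfdh (0.42), Crot (0.72), Ech1 (0.49) and Acaa1a (0.41), and negative for Acaa1b (-1.13). Of the fasting genes, Bdh1 (0.75) was positive and Pdk4 (-2.12) negative.

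The sterol and hypoxia genes named here were negative with a single exception, Abca1 (0.38), the cholesterol exporter. In the whole sterol sensing list, 2 of 14 genes were called positive and 7 had a positive fitted interaction. Cholesterol synthesis gave Mvd -0.61, Msmo1 -0.61, Lss -0.48, Hmgcs1 -0.43 and Sqle -0.35. Sterol sensing gave Insig1 -1.16. Hypoxia-inducible genes gave Ankrd37 -0.98, Egln3 -0.95, Ndrg1 -0.89 and Bhlhe40 -0.20, and the stress genes Hmox1 -1.15, Slc7a11 -0.62 and Eif4ebp1 -0.37.

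Hepatocyte functions were mostly positive. Amino acid and nitrogen genes were Acmsd (1.04), Kynu (1.04), Mat1a (0.91), Cps1 (0.98), Glud1 (0.70) and Slc25a15 (0.50), with Arg1 negative (-0.47). Glucose genes were Slc2a2 (1.61), Gys2 (1.04), Gpt2 (1.02), Slc37a4 (0.58), Fbp1 (0.44) and Gpt (0.35). Bile acid genes and regulators were Nr1h4 (1.04), Amacr (0.67), Cyp7b1 (0.64), Onecut1 (0.80), Nr1i2 (0.73) and Hnf4a (0.24), with Onecut2 negative (-0.67). Secreted proteins were Hamp (1.42), Cxcl1 (0.84), Ccl2 (0.78), Hp (0.77), Cpn2 (1.97), F7 (0.93), Masp1 (0.82), Serpinf2 (0.66), Serpina7 (0.99), Apon (0.79), Apoa5 (0.74), Ahsg (0.30) and Trf (0.25). Drug metabolism gave Adh1 0.74, Ugt2b35 0.70, Ugt2b36 0.65, Fmo1 0.67, Gstm4 0.76, Gstm3 0.67 and Cyp2u1 1.08, with Cyp2d26 (-0.49) and Cyp2c70 (-0.38) negative.

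Growth, structure and timing gave Lepr 0.82, Irs1 0.78, Socs2 0.67, Igfbp3 -0.64, Ccnd1 0.79, Mcm5 0.61, Cdkn1a -0.44 and Cdk2 -0.40. Matrix and biliary genes were Itga2 (-0.78), Itga1 (0.59), Col18a1 (0.56), Ankrd1 (0.63), Sox9 (-0.79), Cldn4 (-0.77), Spp1 (0.54) and Tubb2b (0.52). Clock genes were Nfil3 (0.30) and Rora (0.27). Folding and housekeeping genes were within 0.5 of 0: Dnajb9 (-0.29), Dnajc3 (0.22), Xbp1 (0.19), Hspa4 (-0.26), Dnajb1 (-0.24), Sdha (0.18), mt-Co1 (-0.24) and Psmd11 (-0.24). Cell-type markers were Cd68 (-0.83) and Pecam1 (-0.42).

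Genes on no list, named for size, were the blunted Sema7a (-2.67), Tenm4 (-2.09), Ivl (-1.78), Slc16a12 (1.62) and Slc17a4 (1.55), and the reversed Htr2b (-1.71), XLOC_006405 (-1.66), Irx3 (-1.57), Nat8f4 (-1.46) and Kalrn (1.10). The strengthened ones were Atoh8 (1.11), XLOC_008144 (0.97), XLOC_014374 (-0.98), Cyp26a1 (-0.87), Tcf7l2 (-0.80) and Gml (-0.80). Strengthening here refers to the log2 scale. Cyp26a1 was 1 of 2 among the 149 strengthened genes whose interaction had the opposite sign in CPM (1.02).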

How the results depend on the processing

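The interaction passed for 1551 genes, and for 1027 to 1679 when 1 library was left out, 1410 in DESeq2 (710 positive, 700 negative), 1495 in voom and 728 at an adjusted p under 0.01, while 161 also reached an absolute log2 interaction of 1. Leaving out 1 library gave 374 to 755 genes for BBR with OA, 2549 to 3661 for BBR without OA, 758 to 1256 blunted, 29 to 97 reversed and 61 to 153 strengthened genes. Deviations of same-numbered libraries correlated at -0.0274 to 0.155, positive in 16 of 18 pairs but above 0.1 in 4. Those of differently numbered libraries were positive in 9 of 36 pairs, and 11 of 12 libraries correlated best with their own number. Deviations were taken from group means, so these counts are not independent. The labels state no pairing, so the main fit did not use the numbers, and a shared replicate effect was not excluded. With a replicate block, 2265 genes passed the interaction and 1367 BBR with OA (1391 with a GC trend removed as well), with 195 reversed (191) and 263 strengthened (275). Of 136 named genes that passed, 100 passed under all 21 alternatives, 36 lost the call under at least 1, and none reversed. The call was lost most often for Xbp1 (17 alternatives), Rora (14), Sdha (13), Gml (12) and Cyp26a1 (11). Of 14 named genes that did not pass, Cpt1a, Cyp3a11 and Angptl4 passed under at least 1 alternative. Across the lists, 232 member counts moved by over 1.5 times and 1364 did not. The cause of these moves was not tested. At 3 libraries per group, interactions of 0.5 were detected incompletely in simulation (80%, in genes averaging above 5 CPM). Smaller interactions and genes at lower levels were not simulated.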

Other observations

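Some named genes lay outside the functions described above. Slc17a4, an anion transporter that also carries thyroid hormone, was a blunted fall, at 11.8, 11.980 and 15.3 CPM in control, 4.98, 3.84 and 8.43 CPM with OA, 3.73, 2.96 and 3.98 CPM with BBR and 3.95, 4.17 and 5.96 CPM with both (interaction 1.55 ± 0.32 (SE), adjusted p = 0.0036, edgeR). Amacr, the racemase for branched-chain fatty acids and bile acid intermediates, fell from 12.7 ± 0.106 to 8.57 ± 1.04 CPM without OA and stood at 8.89 ± 0.458 and 9.52 ± 0.485 CPM in OA medium (SD, n = 3, interaction 0.67, adjusted p = 0.00327). Bscl2, seipin of droplet formation, was a blunted fall as well (-0.72 without and 0.15 with OA, interaction 0.87, adjusted p = 0.00137). Tubb2b, a tubulin that rises in dedifferentiating cells, had an effect of -0.11 without and 0.41 with OA (interaction 0.52, adjusted p = 0.00501).

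An assembled locus without a gene name, XLOC_014374, had the most negative interaction among the strengthened falls named. It was at 17.1, 18.5 and 17.2 CPM in control, 17.1, 23.3 and 17.6 CPM with OA, 18.4, 24.7 and 20.2 CPM with BBR and 11.3, 13.4 and 10.1 CPM with both (interaction -0.98 ± 0.18 (SE), adjusted p = 0.00102, edgeR).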
